A study of Sus scrofa with 8 samples.

Results

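Enzymes of amino acid metabolism were followed in infarcted and remote left ventricle of pigs: IVD and ACADSB, which break down branched-chain amino acids, the aspartate aminotransferases GOT1 and GOT2, and PHGDH, which opens the synthesis of serine. These 5 genes were picked by symbol from the authors' deposited table of infarcted against remote tissue. They are among 1341 genes that stand there as the single gene name of a transcript, out of 25470 transcripts on the array. Entry to that table required at least a 2-fold change between the regions by the authors' own values and an unadjusted p under their limit. The difference between the regions thus chose the genes and is given here as a description without a test. Each of the 5 genes was measured by 1 transcript, and none of these shares its annotation with another locus.

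The hearts came from 4 young female Large White pigs, in which a balloon closed the mid-left anterior descending coronary artery for 90 min. A sample of the anterior wall (infarcted) and a sample of the posterior wall (remote) of the left ventricle were taken from each heart, which gave 8 samples on porcine gene arrays, 4 for each region. Tissue was collected at day 7 by the design text of the series and at day 10 by the paper's methods. All pigs received amiodarone, acetylsalicylic acid and antibiotics and had been chosen for a large infarct and a low ejection fraction. In the paper's imaging a single animal had a smaller infarct than the others, and the sources used here do not link its animal numbers to the array labels. No heart without an infarct was measured, so the remote wall is the only reference. Values are log2 signals as deposited, and differences are infarcted minus remote on that scale. Both arrays of pig 4 had a narrower spread of signals (SD 1.49 in remote and 1.46 in infarcted tissue) than the other 6 arrays (1.68 to 1.84), and values without pig 4 are given where they matter.

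Leucine, isoleucine and valine are broken down in mitochondria, where an aminotransferase removes the amino group, a dehydrogenase complex removes carbon dioxide, and acyl-CoA dehydrogenases then oxidise the branched acyl-CoA. IVD oxidises isovaleryl-CoA from leucine and ACADSB the corresponding product of isoleucine, and both hand their electrons to the electron transfer flavoprotein of the respiratory chain. GOT1 in the cytosol and GOT2 in the mitochondrial matrix interconvert aspartate and glutamate, and together with malate dehydrogenases and carriers they form the malate-aspartate shuttle, which brings the reducing power of cytosolic NADH into mitochondria of the heart. PHGDH oxidises phosphoglycerate, an intermediate of glycolysis, and so starts the pathway to serine, glycine and folate-bound carbon units that proliferating cells use for nucleotides.

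Infarcted tissue had lower signals of the 4 catabolic and shuttle enzymes and a higher signal of PHGDH. The mean difference was −2.48 for IVD, −2.26 for ACADSB, −2.64 for GOT1, −2.17 for GOT2 and 1.55 for PHGDH. Signals of the first 4 were thus 5.57, 4.80, 6.23 and 4.5 times lower, and no fold is given for PHGDH, whose remote signals were low. The direction was the same in each of the 4 pigs for each gene, and the infarcted and remote values did not overlap for any of the 5. Over all transcripts, 5.06% had all infarcted below all remote values and 5.19% the reverse. With the region as the only factor, which leaves out the pairing by pig, an adjusted p under 0.05 in limma was reached by all 5 genes. It was reached by 5.9% of all transcripts, and by 5.38% together with a 2-fold change. With the pig as a replicate block in limma all 5 passed as well (adjusted p of 0.000361 for IVD to 0.00303 for ACADSB). Of all transcripts 5.66% then passed downwards and 4.57% upwards. Nothing is read from these counts, because the same contrast chose the genes. In whole-tissue RNA, fewer cells of a type and less RNA per cell cannot be told apart.

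The signal of IVD in remote tissue was 7.36, 7.50, 7.26 and 7.09 in pigs 1 to 4. In infarcted tissue it was 4.84, 4.96, 4.76 and 4.74 in the same order. The samples of each region lay close together, with an SD of 0.17 in remote and 0.10 in infarcted tissue (n = 4), and a gap of 2.13 separated the lowest remote from the highest infarcted sample. Within the pigs the difference was −2.52, −2.54, −2.50 and −2.35, which is −2.48 ± 0.09 (SD, n = 4).

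The signal of ACADSB in remote tissue was 7.21, 7.48, 6.68 and 5.61 in pigs 1 to 4. In infarcted tissue it was 4.08, 5.24, 4.05 and 4.56. The remote sample of pig 4 was the lowest of its region and the infarcted sample of pig 2 the highest, and these were only 0.37 apart. The difference was −3.13, −2.24, −2.63 and −1.05 within the pigs, or −2.26 ± 0.89 (SD, n = 4), and its mean was −2.67 without pig 4. The enzymes of leucine and isoleucine breakdown thus differed in spread more than in mean, since IVD minus ACADSB was −0.22 ± 0.81 (SD, n = 4) and ran from −1.30 in pig 4 to 0.61 in pig 1.

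The cytosolic aminotransferase GOT1 had remote signals of 7.57, 7.75, 7.76 and 6.77 in pigs 1 to 4. Its infarcted signals were 4.89, 4.87, 4.49 and 5.04. The remote sample of pig 4 was again the lowest and its infarcted sample the highest, so pig 4 had the smallest difference from both sides. The differences were −2.68, −2.88, −3.27 and −1.73, or −2.64 ± 0.65 (SD, n = 4), and the mean was −2.94 without pig 4.

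The mitochondrial aminotransferase GOT2 had remote signals of 8.16, 8.50, 8.46 and 6.79. Its infarcted signals were 5.47, 6.28, 5.68 and 5.80. Remote tissue of pig 4 lay 0.51 above the highest infarcted sample, that of pig 2. The differences were −2.69, −2.22, −2.78 and −0.99, or −2.17 ± 0.82 (SD, n = 4), with a mean of −2.56 without pig 4. The differences of both aminotransferases were nearly equal in pig 1 (GOT1 minus GOT2 of 0.01), and GOT1 had the larger one in pigs 2 to 4 (−0.66, −0.49 and −0.74), with a mean of −0.47 ± 0.34 (SD, n = 4).

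PHGDH had remote signals of 1.89, 1.90, 2.01 and 2.71 in pigs 1 to 4. Its infarcted signals were 3.44, 3.64, 3.81 and 3.83. All 4 remote values were below the median signal of their array (2.96 to 3.18) and may not stand out from background, which leaves the size of the difference uncertain, whereas all 4 infarcted values were above the median of theirs (2.99 to 3.22). The differences were 1.55, 1.74, 1.80 and 1.12, or 1.55 ± 0.31 (SD, n = 4), with a mean of 1.70 without pig 4. The contrast of PHGDH with the mean of the other 4 enzymes was 4.31, 4.21, 4.60 and 2.65 in pigs 1 to 4, or 3.94 ± 0.88 (SD, n = 4). The difference between the regions was −2.37 in the mean of IVD and ACADSB and −2.41 in that of GOT1 and GOT2, with SDs over the pigs of 0.48 and 0.72. These are means of 2 genes each. The 9 named genes of branched-chain breakdown described below had a median of −1.61, and the 5 of the shuttle and aminotransferases −1.81.

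**Figure D1:**
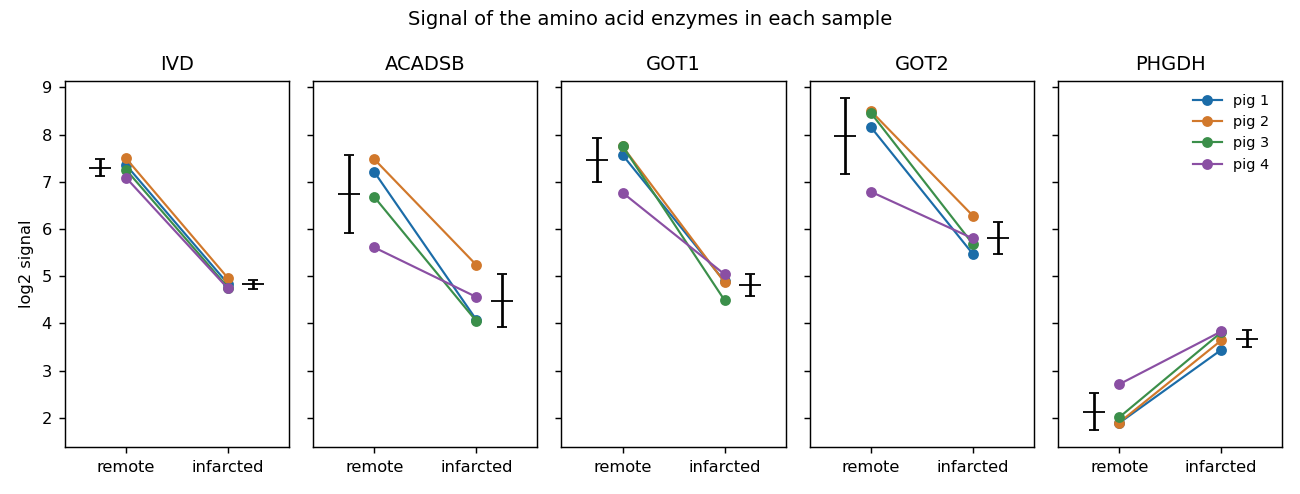
The log2 signal of each enzyme in remote and infarcted tissue, with a line for each of the 4 pigs and the mean ± SD (n = 4) beside the points. IVD had nearly the same values in all pigs, the remote values of ACADSB, GOT1 and GOT2 were lowest in pig 4, and PHGDH was higher in infarcted tissue of every pig.

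Differences between the pigs were looked at in limma's moderated F test with the region as a second factor. None of the 5 genes passed it, with adjusted p-values of 0.320 for ACADSB, 0.393 for GOT2, 0.510 for PHGDH, 0.823 for IVD and 0.849 for GOT1, and 0 of 5 had an unadjusted p under 0.05. Over all transcripts 0.695% passed after adjustment and 20.3% before it, and of the 28 named genes of amino acid metabolism described below 0 passed after and 9 before it. The spread between pigs enters the p-value on which the naming table was filtered, so these values are a description and nothing is read from the count. They do not show that the pigs were alike.

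The steadiness of the difference over the pigs set IVD apart from the other 4 enzymes in size, although not by a test. The SD of its difference over the 4 pigs was 0.09, against a median of 0.43 over all transcripts, and only 0.954% of all transcripts had a value as small or smaller. The SDs of ACADSB (0.89), GOT2 (0.82) and GOT1 (0.65) were above that median and that of PHGDH (0.31) below it. The table that names the genes was filtered on a p-value of this contrast, which favours a small spread, so these positions are a description.

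In pig 4 the difference was 0.933 of the mean of the other 3 pigs for IVD, 0.588 for GOT1, 0.394 for ACADSB, 0.386 for GOT2 and 0.660 for PHGDH. Among the 872 transcripts that were lower in infarcted tissue at an adjusted p under 0.05 in limma, the median of this ratio was 0.587, and 587 of them (67.3%) had their smallest fall in pig 4. The values of ACADSB and GOT2 in pig 4 were therefore below this median, that of GOT1 close to it, and that of IVD above it, with 185 of the 872 transcripts higher still. Among the 630 transcripts that were higher in infarcted tissue by the same limit, the median ratio was 0.644, and 374 (59.4%) had their smallest difference in pig 4. The ratio of PHGDH was close to that median. After quantile normalization, which gives all arrays the same spread, the remote sample of pig 4 was still below the mean of the other remote samples for ACADSB (by −0.88 instead of −1.51), GOT2 (−0.92 instead of −1.58) and GOT1 (−0.27 instead of −0.92). For IVD its sign turned, from −0.28 to 0.35, and for PHGDH it stayed above the others (0.48 instead of 0.78). The mean differences between the regions after quantile normalization were −2.36 for IVD, −2.16 for ACADSB, −2.50 for GOT1, −2.02 for GOT2 and 1.55 for PHGDH.

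Within each array the position of each gene's signal among all transcripts shifted in the direction of its difference. IVD stood between the 96.4th and 97.4th percentile of its array in remote tissue and between the 78.6th and 83.2nd in infarcted tissue, and GOT1 moved from a range of 96.6 to 97.7 to one of 75.7 to 86.9. ACADSB had 91.3 to 96.6 in remote and 68.9 to 82.1 in infarcted tissue, and GOT2 had 96.7 to 98.6 and 85.6 to 93.2. PHGDH crossed the middle of the arrays, from 18.8 to 35.1 in remote to 58.4 to 66.8 in infarcted tissue, and its highest remote position was that of pig 4. Signals of different probes are not comparable as levels, so only the shift of each gene between the regions is read from these positions.

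**Figure D2:**
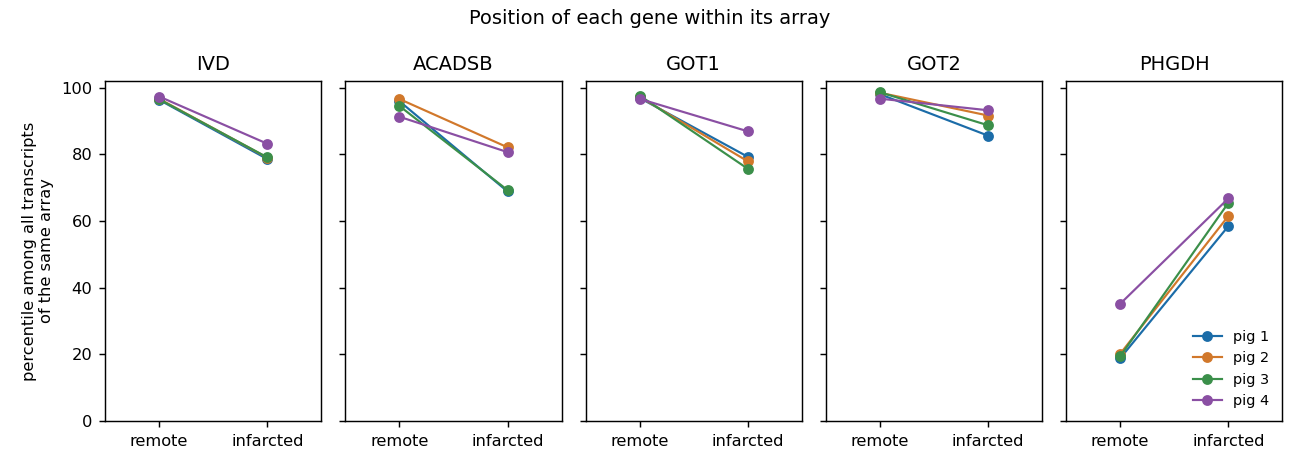
The percentile of each enzyme among the 25470 transcripts of the same array, in remote and infarcted tissue, with a line for each pig. Each of the 4 catabolic and shuttle enzymes had a lower position in infarcted than in remote tissue of every pig, and PHGDH a higher one.

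Other genes of amino acid metabolism were taken from lists of 122 genes, of which 28 carried a name in the deposited table, 23 besides the 5 enzymes. A gene was taken as named only where it was the single gene name of a transcript, and 19 transcripts with several gene names were left out. The remaining 94 have no such name there and were not analysed here. Because a name required a difference between the regions, the counts below describe the named genes and not the pathways. Rose and fell refer to an adjusted p under 0.05 in limma with the region as the only factor, a fit that leaves out the pairing by pig. Over all transcripts 2.47% passed it upwards and 3.42% downwards, and the median difference was 0.02. Among the 28 genes 12 fell, 2 rose and 14 did not pass, with the 5 enzymes counted in. With the pig as a replicate block, which uses that each pig gave both regions, 22 fell and 4 rose, and only SLC7A8 (adjusted p = 0.160) and ALDH18A1 (0.0542) did not pass in limma, against 5.66% of all transcripts lower and 4.57% higher.

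Of 25 listed genes of branched-chain breakdown, 9 carried a name, all 9 had a negative mean difference (median −1.61), 5 fell and 4 did not pass. Besides IVD and ACADSB the genes that fell were HSD17B10 (−1.67, adjusted p = 0.0216), a dehydrogenase of isoleucine breakdown, HIBADH (−1.61, adjusted p = 0.0199), a dehydrogenase of valine breakdown whose transcript shares its annotation with an unnamed locus, and BCKDK (−1.26, adjusted p = 0.0160), the kinase that inhibits the branched-chain ketoacid dehydrogenase complex. The mitochondrial branched-chain aminotransferase BCAT2 had −0.97 (adjusted p = 0.0549), the dehydrogenase subunit DLD, which other complexes share, −1.51 (0.126), the hydratase ECHS1 −1.47 (0.0533), and the propionyl-CoA carboxylase subunit PCCA −1.70 (0.0823), all from limma. The named genes thus included steps from the amino group transfer to propionyl-CoA. With the pig as a replicate block all 9 passed. In the fit with the region as the only factor, 1, 2, 1 and 9 of them passed without both arrays of pigs 1 to 4 in turn. Of all transcripts 109, 273, 151 and 1906 were then lower, against 872 with all pigs.

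The remote sample of pig 4 also stood low for most of these genes. For ECHS1 the remote signals were 8.25, 8.31, 8.37 and 6.47 in pigs 1 to 4, and the infarcted ones 6.17, 6.50, 6.48 and 6.38, so that the difference was −0.09 in pig 4 against −1.81 to −2.08 in the others. Of the 22 named genes with a negative mean difference, 19 had their smallest difference in pig 4. The exceptions were VLDLR, PCCA and ACADM, whose smallest difference was in pig 2. PCCA had −1.56, −1.12, −2.68 and −1.44 in pigs 1 to 4, and ACADM had −1.95, −1.49, −1.97 and −1.82.

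In the list of the malate-aspartate shuttle and aminotransferases 5 of 10 genes carried a name, with a median difference of −1.81, and 4 fell. Next to GOT1 and GOT2 these were the oxoglutarate-malate carrier SLC25A11 (−1.81, adjusted p = 0.0193) and the alanine aminotransferase GPT (−1.77, adjusted p = 0.00171). The aspartate-glutamate carrier SLC25A12, which is the other carrier of the shuttle, had −1.53 (adjusted p = 0.0804, or 0.0174 with the pig as a replicate block). GPT had remote signals of 4.48, 4.82, 4.88 and 4.61 and infarcted signals of 2.89, 2.80, 2.67 and 3.34, and had little spread in remote tissue (SD 0.19, n = 4). Its infarcted signals in pigs 1 to 3 were below the median of their arrays (2.99 to 3.05). They may not stand out from background, which leaves the size of the difference of GPT uncertain. SLC25A11 had 8.34, 8.40 and 8.41 in the remote tissue of pigs 1 to 3 and 6.58 in that of pig 4, against 5.99 to 6.27 in infarcted tissue.

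The list of serine, glycine and folate cycle enzymes held 15 genes, of which PHGDH, PSAT1 and MTHFD2 carried a name. All 3 had a positive mean difference (median 1.34), but only PHGDH rose, and all 3 passed with the pig as a replicate block. PSAT1, the aminotransferase that follows PHGDH in serine synthesis, had remote signals of 2.13, 2.09, 3.47 and 2.31 and infarcted signals of 4.81, 3.20, 4.15 and 3.02 in pigs 1 to 4. These groups overlapped, and its difference was 1.30 (standard error 0.43, adjusted p = 0.127, or 0.0393 with the block). The remote signals of PSAT1 in pigs 1, 2 and 4 and its infarcted signal in pig 4 were below the median of their arrays. MTHFD2, a mitochondrial enzyme of folate-bound carbon units, had 3.81, 3.55, 4.02 and 3.64 in remote and 5.22, 5.86, 5.64 and 3.67 in infarcted tissue, a difference of 1.34 (standard error 0.42, adjusted p = 0.0966, or 0.0349 with the block). Its second transcript had 1.19 (adjusted p = 0.164). In the infarcted sample of pig 4, PHGDH had the highest of its 4 infarcted values, whereas PSAT1 and MTHFD2 had their lowest.

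Both acyl-CoA dehydrogenases of branched chains were also set beside their relatives that act on straight fatty acyl chains, and beside the flavoprotein that receives their electrons. Of 14 listed genes 8 carried a name, all with negative mean differences (median −1.85), and 5 fell. ACADM, the medium-chain dehydrogenase, had −1.81 (adjusted p = 0.0352), the flavoprotein subunit ETFB −2.02 (0.0232) and the flavoprotein's dehydrogenase ETFDH −1.90 (0.00956). ACADL, the long-chain enzyme, had −1.79 (0.0962), ETFA −1.25 (0.103) and ACAD11 −1.11 (0.106), all from limma, and a replicate block gave these 3 a call (0.0235, 0.0244 and 0.0107). IVD and ACADSB had the largest mean differences of the 8, with standard errors of 0.19 and 0.41 against 0.34 to 0.55 for the other 6, and the differences between these genes were not tested.

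Outside these groups few genes carried a name. SLC7A7, an exchanger of cationic and neutral amino acids, rose by 2.10 (adjusted p = 0.0124), with remote signals of 2.60, 2.58, 2.34 and 3.18 and infarcted signals of 5.35, 5.39, 4.86 and 3.49. Its remote signals were at or below the median of their arrays and may not stand out from background, so the size of this difference is uncertain. SLC7A8, an exchanger of large neutral amino acids, had 0.91 (adjusted p = 0.209). ALDH18A1, which makes the precursor of proline and ornithine from glutamate, had 0.82 (adjusted p = 0.251) and ornithine aminotransferase OAT −0.98 (0.0974, or 0.0164 with the block in limma), so that the list of glutamine, asparagine, proline and urea cycle enzymes had 2 of 14 genes named, 1 in each direction. ALDH18A1 had the smallest difference of the 28 genes. It, SLC7A8, BCAT2 and OAT lie under a 2-fold change in the plain means used here, while genes outside the table's limits carry no name. Of 16 genes of the amino acid stress response only the lipoprotein receptor VLDLR carried a name, with −1.46 (adjusted p = 0.134, or 0.00314 with the block), and of 16 genes of lysine, tryptophan, tyrosine and sulfur amino acids none did.

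**Figure D3:**
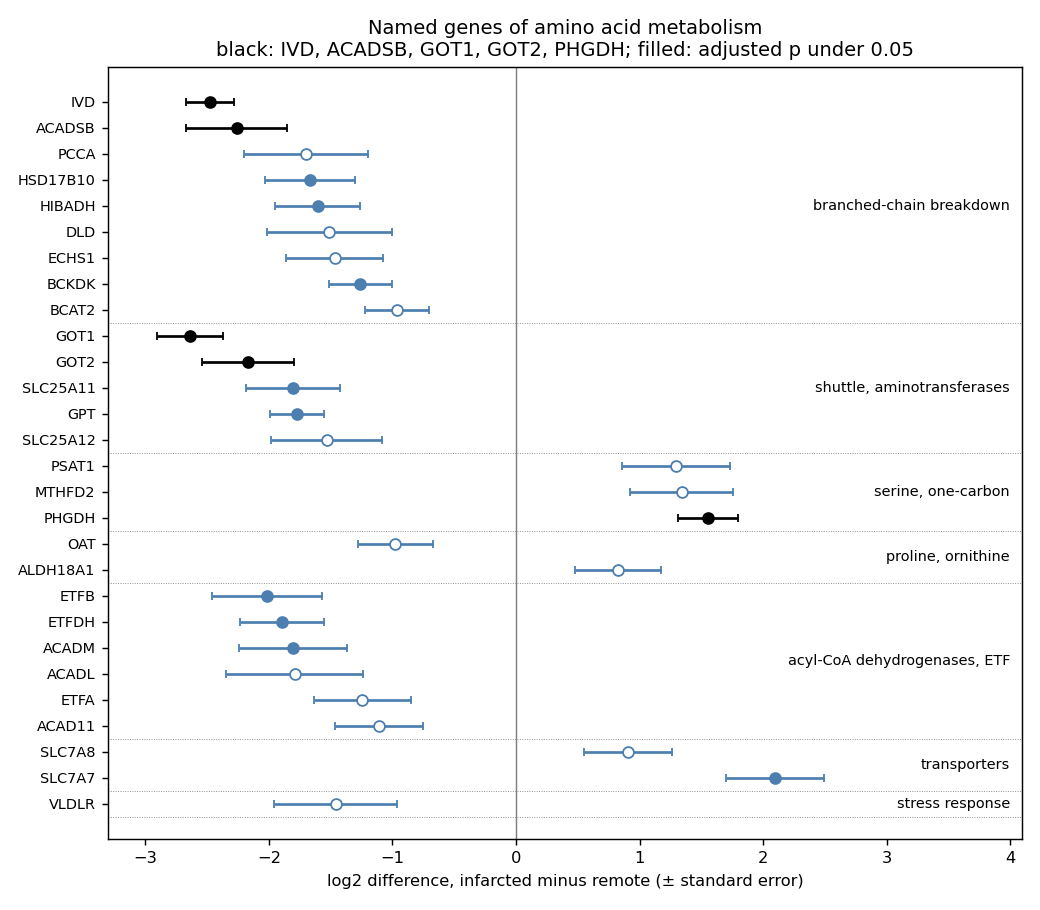
The log2 difference (infarcted minus remote) and its standard error from limma (n = 4 pigs per region) for the 28 named genes of amino acid metabolism, grouped by list, with each gene shown once. Genes of branched-chain breakdown, the shuttle and the acyl-CoA dehydrogenases lie on the negative side, and PHGDH, PSAT1 and MTHFD2 on the positive side.

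Several of these calls changed when 1 array was left out, in the fit with the region as the only factor. Counts over all transcripts changed as well. Lower transcripts numbered 415, 422 and 504 without remote replicates 1 to 3, and 435 and 457 without infarcted replicates 1 and 3, against 872. They numbered 1508 without remote replicate 4. Higher ones numbered 1383 without infarcted replicate 4, against 630. The calls of BCKDK, HIBADH, HSD17B10 and SLC25A11 were lost without remote replicate 1, 2 or 3 or infarcted replicate 1 or 3 (adjusted p up to 0.0781), that of ETFB also without infarcted replicate 2 (up to 0.0830) and that of ACADM without any of the arrays but infarcted replicate 2 and remote replicate 4 (up to 0.118). Leaving out remote replicate 4 gave a call to BCAT2, DLD, ECHS1, PCCA, SLC25A12, ACADL, ETFA and OAT (adjusted p of 0.000714 to 0.0291), and leaving out infarcted replicate 4 gave one to MTHFD2, ALDH18A1 and SLC7A8 (0.00120 to 0.0266). PCCA also passed without infarcted replicate 2. The adjusted p of GPT, ETFDH and SLC7A7 stayed under 0.05 in limma with any 1 array left out, as it did for the 5 enzymes. With both arrays of a pig left out, IVD, GOT1 and GPT stayed under it for each pig, ACADSB, GOT2 and ETFDH were above it without pig 1 or 3, and PHGDH and SLC7A7 without pig 1, 2 or 3.

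Named markers of cell types differed between the regions as well. A name required such a difference, so the counts describe the named markers only and nothing is read from them. Over all transcripts 2.47% rose and 3.42% fell. Of 14 cardiomyocyte markers 8 carried a name, 5 of them fell, and the sum of their linear signals was 10879.8 to 20779.8 in remote and 1721 to 8807 in infarcted tissue, with none at 0 (the lowest log2 signal was 4.29). Of 13 fibroblast and myofibroblast markers 8 were named and 7 rose, with sums of 167 to 915 in remote and 2734 to 6587 in infarcted tissue. Of 14 macrophage and monocyte markers 6 were named and all 6 rose, from sums of 61.8 to 93.4 to sums of 229.7 to 1721. Of 7 smooth muscle markers 3 were named, of which ACTA2 (2.47) and TAGLN (1.69) rose and SMTN (−1.04) fell. Of 10 neutrophil markers 3 were named, all with higher means, and S100A8 rose (2.33), and of 9 markers of dividing cells CENPF was named, with 1.47 (adjusted p = 0.214 in limma). The part of these cell types in the differences of the 5 enzymes was not tested, and markers of endothelium and lymphocytes carried no name.

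Pig 4 stood apart in part of these markers as well. The median difference of the cardiomyocyte markers was −3.08, −2.02, −3.82 and −0.78 in pigs 1 to 4, and their summed signal in remote tissue was 10879.8 in pig 4 against 18225 to 20779.8 in the others. The sum weighs the brightest markers most. TNNC1, MYH7, MYL2, MYL3 and PLN had their lowest remote signal in pig 4. MYBPC3 (9.83 against 8.84 to 9.19) and RYR2 (9.09 against 8.62 to 9.03) had their highest there. The part of the narrower spread of the pig 4 arrays was not tested. All 5 enzymes also had their smallest difference in pig 4, by little for IVD, whose differences stayed between −2.54 and −2.35. The same held for 67.3% of the transcripts that were lower and 59.4% of those that were higher at an adjusted p under 0.05 in limma. The macrophage markers summed to 229.7 in the infarcted sample of pig 4 and to 1542 to 1721 in the other infarcted samples. SPP1 was the brightest of them in pigs 1 to 3, and had 5.31 in pig 4 against 10.15 to 10.37. All but TYROBP (6.22 against 6.02 to 6.59) had their lowest infarcted signal there, CSF1R by little (5.54 against 5.65 to 6.40). The median difference of these markers was 2.295, 2.905, 2.365 and 1.805 in pigs 1 to 4. The fibroblast markers summed to 2734 in the infarcted sample of pig 4 against 5315 to 6587. The fibroblast sum was low in remote tissue of pig 4 too (166.5 against 616.8 to 914.6), and the median difference of these markers was not smallest there, at 2.67 against 2.31 to 3.01 in the other pigs. PHGDH had 3.83 in the infarcted sample of pig 4 and 3.44 to 3.81 in the others, so its infarcted level was not lower there. SLC7A7 had 3.49 there against 4.86 to 5.39.

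**Figure D4:**
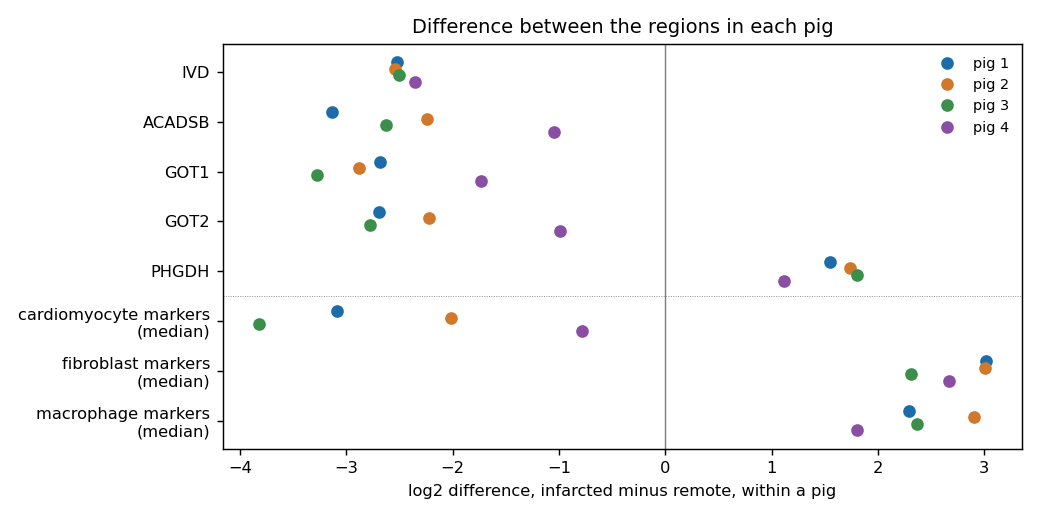
The log2 difference between infarcted and remote tissue within each of the 4 pigs for the 5 enzymes, and below the dotted line the median difference of the named cardiomyocyte (8 genes), fibroblast (8) and macrophage (6) markers. All 5 enzymes and the medians of the cardiomyocyte and the macrophage markers have their smallest difference in pig 4, and the median of the fibroblast markers does not. The 4 values of IVD lie within −2.54 to −2.35.

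The deviations of the 5 genes from their region means over the 8 arrays ran together for the 4 catabolic and shuttle enzymes. Pearson's r was 0.90 between IVD and ACADSB, 0.85 between GOT1 and GOT2, 0.89 between ACADSB and GOT2 and 0.66 between IVD and GOT1. PHGDH deviated the other way, with r of −0.70 to −0.82 against each of them. These correlations describe the same 8 arrays, including those of pig 4 with their narrower spread of signals, whose part was not tested. The r usual between other transcripts of like signal was not looked at, so these values are not shown to be particular to the enzymes. Among 1375 named transcripts, the deviations most like those of ACADSB were those of the thioesterase ACOT13 (r = 0.99), the ATP synthase subunit ATP5F1 (0.99) and the phosphatase PPM1E (0.99), and those most like GOT1 were of the complex I subunit NDUFB9 (0.98), adenylate kinase AK1 (0.97) and FAHD2A (0.97). For IVD they were of SPATA24 (0.99), the protein kinase A subunit PRKAR2A (0.98) and RNF180 (0.97), for GOT2 of PSMG3, ANKRD39 and LIX1 (0.98 each), and for PHGDH of DENND1C (0.97), AMICA1 (0.93) and CEMIP (0.85), the last of which shares its transcript with an unnamed locus.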

How the data were processed

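RNA of 4 infarcted and 4 remote samples was hybridised to GeneChip Porcine Gene 1.1 ST arrays. Signals were normalized by the authors with the Transcriptome Analysis Console, and the deposited values are log2 signals of 25470 transcripts on each array; how probes were summarised is not given in the sources used here. Symbols came from the authors' deposited comparison table, whose averages, fold changes and p-values were not used; 111 of its 537 placeholder loci were renamed from RefSeq (Sscrofa11.1). Other deposited sheets, which repeat that table or hold enrichment results, were not used.

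The log2 signals were fitted with limma 3.58.1 (R 4.3.3; lmFit, eBayes, region as factor), with Benjamini-Hochberg adjustment over 25470 transcripts (6 residual and 4.86 prior degrees of freedom, median standard error 0.274). Differences between pigs were tested with a moderated F test in a fit with region and pig. For genes with more than 1 transcript the brightest was taken. Tables were summarised with Python 3.11.15, pandas 2.3.3 and numpy 2.4.6, and figures drawn with matplotlib 3.10.9. The fits were tested on simulated data with known changes. The number of arrays limits the precision.

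By the labels a pig number marks 1 animal in both regions, so the numbers pair the samples; deviations from the region means correlated with r of 0.18, 0.43, 0.11 and 0.44 within pigs 1 to 4, and for pig 1 a higher r was found with another pig. Named genes were the 5 enzymes, the listed genes that carry a name, and the 3 transcripts most alike to each enzyme. The genes and lists were chosen with earlier results of these data known. Tried as well were a replicate block for the pig, median centring, quantile normalization, a filter on dim transcripts, moderation with a trend and robust settings, averages over the transcripts of a gene, and leaving out each array and each pig. Enrichment and gene set tests were not run.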

Additional observations from a re-analysis of the deposited data

Results flagged for a closer look

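In groups of 4 samples, a value was marked when its gap to the nearest sample took a share of the group's range above Dixon's limit, which chance does in about 1 of 20 groups. Of 56 groups (28 genes in both regions) 7 were marked. The remote sample of pig 4 was the marked one for PHGDH, where its 2.71 was above the other remote values and the gap was 0.854 of the range, for ECHS1 (6.47, below the others, 0.937), SLC25A11 (6.58, below, 0.962) and ETFB (4.59, below, 0.921). The infarcted sample of pig 4 was marked for SLC7A8 (3.24, below the others, 0.88). In the other 2 groups, DLD in infarcted tissue had a high value in pig 2 (5.85, 0.853) and PSAT1 in remote tissue a high value in pig 3 (3.47, 0.841). The 2 arrays of pig 4, which have the narrowest spread of signals, thus carried 5 of the 7 marks, and the part of that spread was not tested.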

How the results depend on the processing

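The mean differences of IVD, ACADSB, GOT1, GOT2 and PHGDH kept their sign under all 18 alternatives. The shifts were smaller than the SD of the difference over the pigs, except that quantile normalization moved IVD from −2.48 to −2.36, by more than its SD of 0.09. They ranged from −2.55 to −2.36 for IVD, −2.67 to −1.97 for ACADSB, −2.94 to −2.43 for GOT1, −2.57 to −1.97 for GOT2 and 1.47 to 1.75 for PHGDH.

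Counts moved more. With the pig as a replicate block 2604 transcripts differed between the regions (1163 higher, 1441 lower) against 1502 (630 and 872), and the lists had 9 lower genes of branched-chain breakdown, 8 of acyl-CoA dehydrogenases and 3 higher ones of the serine list, against 5, 5 and 1. Quantile normalization gave 8 lower genes of branched-chain breakdown. Transcripts that differed between pigs numbered 177, and 60 after quantile normalization, 994 after median centring and 291 without the dimmest transcripts. Leaving out an array or a pig gave 168 to 3661 transcripts that differed between regions (59 to 1755 higher, 109 to 1906 lower), 1 to 9 lower genes of branched-chain breakdown, 2 to 5 of the shuttle list, 1 to 7 of the acyl-CoA dehydrogenases and 0 to 2 higher ones of the serine list, and 3 to 31 transcripts that differed between pigs. Of the region counts, the lowest came without pig 1 and the highest without pig 4, some of them tied with other settings, and the count between pigs was lowest without pig 4. The region counts without an array or a pig are from the fit with the region as the only factor. Without pig 1, 2 or 3 the serine list had 0 higher genes in it, so PHGDH was no longer called. Without pig 1 or 3 branched-chain breakdown had 1 lower gene, which was IVD. The cause was not tested.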
